A study of Mus musculus with 6 samples.

Results

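The genes described here belong to the Hippo pathway and its effectors YAP and TAZ. They were the coactivator genes Yap1 and Wwtr1 (which encodes TAZ), the DNA-binding partner gene Tead1, the regulator genes Lats2, Amotl2 and Ajuba, and the target genes Ccn1, Ccn2, Ankrd1 and Axl. Members were matched by gene symbol to probe sets with 1 annotated symbol, and where a gene had several, the brightest on average across the 6 arrays was used. All 10 were measured, of 18193 genes in all, and 0 of them lay among the dimmest 40% of genes. The RNA came from NMuMG cells, an immortalised line of epithelial origin established from the mammary gland of a normal mouse. Of the 3 groups, the withdrawal group received 4 ng/ml TGF-β for 11 days and was then kept without it for 13 days, the TGF-β group received 4 ng/ml for 11 days, and the control group received vehicle. Each group had 2 Affymetrix arrays, and the labels name no separate cultures, so the p-values rest on the spread between arrays alone, and that spread may be technical.

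In the Hippo pathway, the kinases Stk3 and Stk4 with the scaffold Sav1 activate the kinases Lats1 and Lats2. These phosphorylate YAP and TAZ and hold them out of the nucleus. Unphosphorylated YAP and TAZ enter the nucleus, bind TEAD proteins at the DNA element GGAATG and switch on genes for matrix, cytoskeletal and growth functions. The activity of YAP and TAZ is set largely by phosphorylation and location of the proteins, which an RNA array does not read. Several targets, Lats2 and Amotl2 among them, encode inhibitors of the pathway's own output, and Ccn2 is also a direct target of SMAD proteins downstream of TGF-β.

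Promoter windows from RefSeq (build GRCm38.p6, 250 bases before to 50 bases after an annotated start) were searched for GGAATG on both strands, because all of the results concern genes tied to TEAD. The table held windows for 8 members, and Ccn2 and Tead1 were not in it. Of these 8 members, 8 had at least 1 match, against 16.6% of 27025 genes with a window and 14.7% of 32851 windows. By comparison, 2 of 10 other genes of a published YAP/TAZ target signature and 8 of 23 other Hippo pathway genes had a match. Members were chosen as pathway genes, with earlier results of these data known. A match is a description of the letters, not a bound site. The windows of the 5 members with a window that were higher under TGF-β than in control are printed, 5′ to 3′ on the strand of the gene, with GGAATG or its reverse complement CATTCC in capitals.
Ccn1 at chr3:145649936-145650235, minus strand: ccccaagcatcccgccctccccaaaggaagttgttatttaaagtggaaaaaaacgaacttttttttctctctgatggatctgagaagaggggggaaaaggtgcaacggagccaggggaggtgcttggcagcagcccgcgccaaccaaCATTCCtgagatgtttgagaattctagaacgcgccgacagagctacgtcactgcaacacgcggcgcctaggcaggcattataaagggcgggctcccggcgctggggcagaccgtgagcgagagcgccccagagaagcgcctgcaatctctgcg
Ankrd1 at chr19:36119795-36120094, minus strand: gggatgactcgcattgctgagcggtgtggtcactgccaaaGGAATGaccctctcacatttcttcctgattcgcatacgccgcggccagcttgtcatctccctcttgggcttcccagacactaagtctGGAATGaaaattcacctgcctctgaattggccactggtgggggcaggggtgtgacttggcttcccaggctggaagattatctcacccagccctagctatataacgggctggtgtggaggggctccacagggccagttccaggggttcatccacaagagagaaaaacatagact
Amotl2 at chr9:102717554-102717853, plus strand: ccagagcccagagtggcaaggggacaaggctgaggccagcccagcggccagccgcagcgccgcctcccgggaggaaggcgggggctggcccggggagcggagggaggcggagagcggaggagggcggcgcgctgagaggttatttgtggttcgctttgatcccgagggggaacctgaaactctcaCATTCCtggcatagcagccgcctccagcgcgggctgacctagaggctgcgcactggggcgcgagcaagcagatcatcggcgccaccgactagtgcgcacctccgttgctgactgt
Ajuba at chr14:54577612-54577911, minus strand: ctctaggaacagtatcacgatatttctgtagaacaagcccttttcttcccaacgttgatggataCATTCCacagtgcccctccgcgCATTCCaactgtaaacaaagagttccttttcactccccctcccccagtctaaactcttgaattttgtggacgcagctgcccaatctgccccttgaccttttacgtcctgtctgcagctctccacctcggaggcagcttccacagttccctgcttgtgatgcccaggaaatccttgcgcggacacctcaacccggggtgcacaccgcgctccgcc
Lats2 at chr14:57746074-57746373, minus strand: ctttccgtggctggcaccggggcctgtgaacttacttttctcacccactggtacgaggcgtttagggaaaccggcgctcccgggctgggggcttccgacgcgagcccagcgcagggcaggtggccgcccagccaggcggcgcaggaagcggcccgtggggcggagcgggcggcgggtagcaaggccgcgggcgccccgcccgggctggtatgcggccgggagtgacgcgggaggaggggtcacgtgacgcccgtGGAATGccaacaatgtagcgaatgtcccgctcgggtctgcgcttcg

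In these windows the first base of the match lay 103 bases upstream of the annotated start in Ccn1 and 65 bases upstream in Amotl2. Ankrd1 had 2 matches, at 210 and 123 bases upstream, and Ajuba had 2, at 186 and 164 bases upstream. In Lats2 the match began at base 5 of the transcript, and a second annotated Lats2 window held none. Among members that did not pass under TGF-β, the match lay 141 bases upstream in Yap1 and 233 bases upstream in Axl. Wwtr1 had 2 overlapping windows that hold the same match, 136 or 170 bases upstream depending on the start used. The SMAD element CAGACA, present on either strand in 21% of all windows, occurred once in Ankrd1 and once in Ajuba among the members. The AP-1 element TGANTCA (7.81% of all windows) and the SRF element known as the CArG box (1.63%) had 0 matches in the windows of the members.

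Median log2 values of the arrays ran narrowly between 5.77 and 5.79, and arrays of a group correlated at 0.998 over all probe sets, which are not independent replicates. One descriptive field of the labels swaps the state names of the treated groups, so the groups were checked on markers. The contractile gene Tagln averaged 6.90 on withdrawal arrays, 12.65 on TGF-β arrays and 6.91 on control arrays, and the E-cadherin gene Cdh1 averaged 11.80, 8.31 and 11.94 in the same order, which follows the titles. Other markers of the same lists did not follow this order. Fn1 averaged 14.14, 13.69 and 12.03 and Cdh2 12.91, 12.50 and 11.75 on withdrawal, TGF-β and control arrays, highest on withdrawal, and the keratin gene Krt8 averaged 13.37, 13.58 and 14.31, lowest there. Markers of leukocytes (5 genes), endothelium (4), adipocytes (3 measured of 4) and fibroblasts (4) had list means of 4.19 to 5.14 on every array. Of these 16 measured markers, 13 lay among the dimmest 40% of genes. The lysosomal macrophage marker Cd68 was higher on withdrawal arrays, by 1.05 against TGF-β and by 0.89 against control, and on TGF-β arrays the endothelial marker Cdh5 lay 0.26 below control arrays at adjusted p = 0.0495. The withdrawal cells were in culture 13 days longer after treatment began, so culture time and withdrawal cannot be told apart. The sample titles give no time in culture for the control cells, so both comparisons with control may also differ in it.

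**Figure D1:**
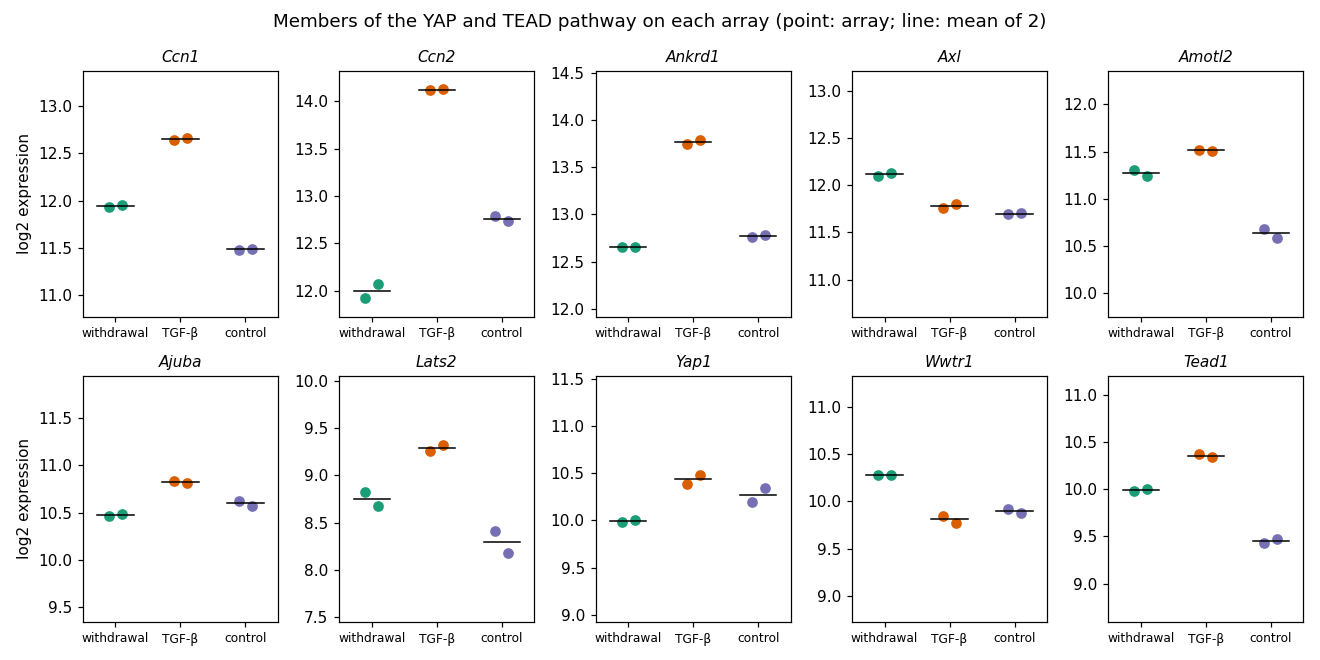
log2 expression of the 10 members on each array, with withdrawal, TGF-β and control from left to right. Each point is 1 array, the line is the mean of 2, and every panel spans the same log2 range. The TGF-β arrays are the highest for 8 members, and the withdrawal arrays are the highest for Wwtr1 and Axl.

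The first comparison addressed how the pathway's transcripts stood after 11 days with the cytokine. Against control, 7 members rose and 0 fell, namely the targets Ccn2, Ccn1 and Ankrd1, the regulators Lats2, Amotl2 and Ajuba, and Tead1. 6 of these rose by 0.88 to 1.36 on the log2 scale, and Ajuba rose by 0.22 but was at -0.066 with poly-A spike scaling. Yap1, Wwtr1 and Axl did not pass. Over all genes, 32.4% passed in either direction, 15.0% upward and 17.5% downward by limma at an adjusted p under 0.05, and the median difference was -0.01, against 0.89 for the members. Members and the other gene lists were chosen with earlier results of these data known. Their shares and medians set against all genes, here and below, are therefore a description and not a test. In bulk RNA a change in the share of cells that express a gene and a change in RNA per cell cannot be told apart. Of 5 epithelial markers 4 fell in this comparison and Epcam was at 0.19 (adjusted p = 0.103), with a list mean of 9.55 to 9.57 on TGF-β arrays and 11.12 to 11.19 on control arrays. All 5 mesenchymal and contractile markers rose, with a list mean of 13.37 to 13.39 on TGF-β arrays and 10.71 on both control arrays. On withdrawal arrays the list means were 10.75 and 11.26 to 11.27, with members of each list going both ways against TGF-β. Among epithelial markers Cdh1 and Ocln rose by 3.49 and 2.93 there while Epcam and Krt8 fell by 0.27 and 0.22. Among the mesenchymal ones Cdh2 and Fn1 rose by 0.41 and 0.46 while Acta2, Tagln and Vim fell by 5.48, 5.75 and 0.23. The part of these markers in the members' results was not tested.

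The second comparison, withdrawal against TGF-β, asked what changed once the cytokine was removed. 8 members fell and 2 rose, so that all 10 passed, against 43.9% of all genes in either direction, 22.1% downward and 21.8% upward. Ccn2 fell by 2.13, Ankrd1 fell by 1.11 and Ccn1 fell by 0.71, and Wwtr1 and Axl rose by 0.47 and 0.34. With poly-A spike scaling 5 members passed here, 2 upward and 3 downward, and Amotl2, Ajuba, Lats2, Yap1 and Tead1 no longer did. With hybridization spike scaling 8 passed, 0 upward and 8 downward. Over all 18193 genes 3506 passed upward and 1500 downward with poly-A spikes, and 2146 and 7772 with hybridization spikes. The third comparison set withdrawal against control: 6 members were higher, 2 were lower (Ccn2 and Yap1) and 2 did not pass (Ankrd1 and Ajuba), against 45.3% of all genes in either direction, 21.7% upward and 23.6% downward. Of the 6 higher members, 0 remained so with hybridization spike scaling, and 1, Amotl2, with poly-A spike scaling. Over all genes 1655 were higher and 12634 lower with hybridization spikes, and 1967 and 3730 with poly-A spikes. The members' median difference was -0.40 in the second comparison and 0.40 in the third, against -0.03 and -0.04 over all genes. With the mean of each gene's probe sets 8 members passed in the second comparison, 0 upward, and in the third 4 were higher and 2 lower. Over all genes the splits with that mean were 3655 higher to 3994 lower and 3653 to 4218. The comparisons share arrays in pairs, so the counts are not independent of one another. The arrays of the groups did not overlap for any of the 10 members in any of the 3 comparisons, which was also so for 64.9%, 69.0% and 70.5% of all genes in the first, the second and the third comparison.

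**Figure D2:**
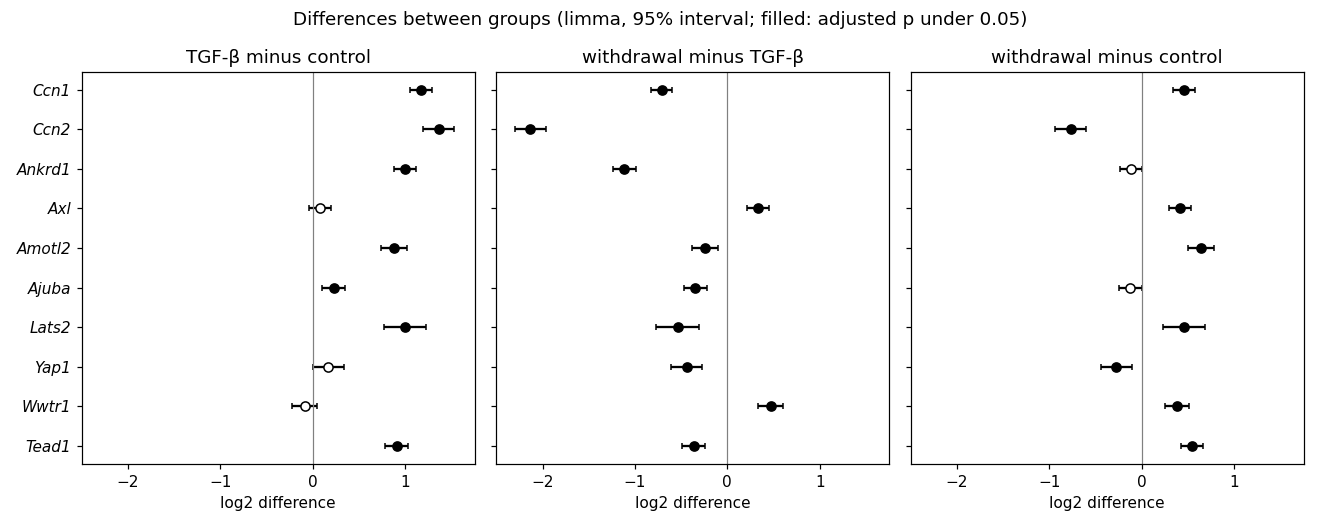
log2 differences of the 10 members in the 3 comparisons, with bars for the 95% interval from limma and filled points for an adjusted p under 0.05. Of the 10 members, 7 are filled under TGF-β, all 10 on withdrawal against TGF-β and 8 on withdrawal against control.

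Among the coactivators, Yap1 encodes YAP, which has no DNA-binding domain of its own. Yap1 read 9.98 and 10.01 on withdrawal arrays, 10.39 and 10.48 on TGF-β arrays and 10.20 and 10.34 on control arrays (log2). The withdrawal arrays were the lowest, and TGF-β and control arrays lay close together. Under TGF-β the difference from control was 0.17 with a 95% interval of -0.0024 to 0.33 (limma, adjusted p = 0.127), and it passed only with an intensity trend among the alternatives (adjusted p = 0.0122). On withdrawal arrays Yap1 was lower by 0.44 ± 0.068 (SE) against TGF-β (adjusted p = 0.00276) and by 0.28 against control (adjusted p = 0.0187). The difference from control did not pass without the first or the second withdrawal array or the second control array (adjusted p = 0.0759, 0.0598 and 0.0959), nor with cyclic loess (0.0519) or poly-A spike scaling (0.052). The other Yap1 probe set, 1416487_a_at, read 7.73 and 7.58 on withdrawal arrays, 8.01 and 7.94 on TGF-β arrays and 8.06 and 8.04 on control arrays. It also passed downward on withdrawal in both comparisons, by 0.32 and 0.40, and was at -0.08 under TGF-β.

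Wwtr1 encodes TAZ, the paralog of YAP. Wwtr1 read 10.28 and 10.28 on withdrawal arrays, 9.84 and 9.77 on TGF-β arrays and 9.92 and 9.87 on control arrays (log2). The withdrawal arrays stood above the other 4, opposite in order to Yap1. The difference under TGF-β was -0.09 with a 95% interval of -0.22 to 0.04 (adjusted p = 0.275), and withdrawal was higher by 0.47 ± 0.054 (SE) against TGF-β and by 0.38 against control (adjusted p = 0.000755 and 0.00178). The direction against control depended on the probe set. In a fit over all 34945 probe sets with 1 symbol, 1417817_a_at read 8.17 and 8.13 on withdrawal arrays against 8.35 and 8.40 on control arrays, a difference of -0.22 (adjusted p = 0.029). Likewise 1437155_a_at averaged 7.70 on withdrawal arrays against 7.98 on control arrays, a difference of -0.29 (adjusted p = 0.0287). These dimmer probe sets were at -0.10 and 0.0084 on withdrawal against TGF-β and did not pass there (adjusted p = 0.25 and 0.947). Under TGF-β all 3 probe sets were below 0, and 1437155_a_at passed at -0.29 (adjusted p = 0.0363). With the mean of the 3 probe sets, Wwtr1 was at 0.13 against TGF-β and at -0.04 against control, and neither passed (adjusted p = 0.0997 and 0.55).

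Tead1 encodes a TEAD protein, through which YAP and TAZ reach DNA. Tead1 read 9.98 and 10.00 on withdrawal arrays, 10.37 and 10.34 on TGF-β arrays and 9.43 and 9.47 on control arrays (log2). The 3 groups were separate, with TGF-β highest and control lowest. Under TGF-β Tead1 rose by 0.91 ± 0.05 (SE), a 1.87-fold rise (adjusted p = 6.57e-05). It fell by 0.36 on withdrawal against TGF-β (adjusted p = 0.00168) and was 0.54 above control there (adjusted p = 0.000279). A dimmer probe set, 1423434_at, read 5.41 and 5.45 on withdrawal arrays, 6.22 and 6.08 on TGF-β arrays and 5.28 and 5.46 on control arrays. It passed with the same signs in the first and second comparisons, at 0.78 and -0.72, but was at 0.06 on withdrawal against control (adjusted p = 0.624), where the mean of both was 0.30 (adjusted p = 0.00817). Among the paralogs, Tead2 rose by 0.33 under TGF-β and by 0.22 on withdrawal against TGF-β, Tead3 was at 0.31 and -0.31 in those comparisons, both passing, and Tead4 passed in none of the 3.

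Among the regulators, Lats2 encodes a kinase that inhibits YAP and TAZ. Lats2 read 8.82 and 8.68 on withdrawal arrays, 9.26 and 9.32 on TGF-β arrays and 8.41 and 8.18 on control arrays (log2). The groups were separate, and the control arrays differed more from each other than those of the other groups. Lats2 rose by 1.00 ± 0.092 (SE) under TGF-β, a 2.00-fold rise (adjusted p = 0.000502). It fell by 0.54 on withdrawal against TGF-β (adjusted p = 0.00434) and stood 0.46 above control after withdrawal (adjusted p = 0.00837). All 6 Lats2 probe sets were above 0 under TGF-β, at 0.16 to 1.00, and 4 of them passed. On withdrawal against TGF-β all 6 were below 0 and 3 passed, and against control they ranged from -0.07 to 0.80 with 2 passing upward. With the mean of probe sets Lats2 was at 0.58, -0.33 and 0.25 in the first, the second and the third comparison, each passing. Without x, s and a probe sets the fall against TGF-β was 0.21 and did not pass (adjusted p = 0.0785), and the difference from control was 0.80. Its paralog Lats1 was at 0.0075 under TGF-β (adjusted p = 0.938) and rose by 0.27 on withdrawal against TGF-β.

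Amotl2 encodes an angiomotin-family scaffold that binds YAP and promotes its phosphorylation. Amotl2 read 11.30 and 11.24 on withdrawal arrays, 11.52 and 11.51 on TGF-β arrays and 10.68 and 10.59 on control arrays (log2). The withdrawal arrays lay nearer to the TGF-β arrays than to the control arrays. Amotl2 rose by 0.88 ± 0.057 (SE) under TGF-β (adjusted p = 0.000125) and was 0.64 higher on withdrawal than in control (adjusted p = 0.000254). The fall of 0.24 on withdrawal against TGF-β passed at adjusted p = 0.0166. That call was lost without the first or second TGF-β array or the second withdrawal array (adjusted p = 0.071, 0.0616 and 0.073), with cyclic loess (0.0777) and with poly-A spike scaling (0.781). Its relative Amot, at 0.09 under TGF-β (adjusted p = 0.273), rose by 1.13 on withdrawal against TGF-β. Amotl1 rose by 0.64 under TGF-β and fell by 1.39 on withdrawal against TGF-β, with the signs of Amotl2, but was at -0.75 on withdrawal against control (adjusted p = 0.000238).

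Ajuba encodes a LIM-domain scaffold that binds Lats kinases and restrains them. Ajuba read 10.46 and 10.49 on withdrawal arrays, 10.83 and 10.81 on TGF-β arrays and 10.63 and 10.57 on control arrays (log2). The TGF-β arrays were the highest by a small margin. Ajuba rose by 0.22 ± 0.051 (SE) under TGF-β (adjusted p = 0.0192), a call lost without either TGF-β array (adjusted p = 0.0865 and 0.073), without either control array (0.0556 and 0.109) and with hybridization spike scaling (0.727). On withdrawal it fell by 0.35 against TGF-β (adjusted p = 0.00226). Against control the difference was -0.12 with a 95% interval of -0.25 to 0.0021 (adjusted p = 0.102), and it passed with an intensity trend and with the dimmest genes left out (adjusted p = 0.00917 and 0.0385). With hybridization spike scaling it passed at -0.50 (adjusted p = 0.000412), and with cyclic loess it was at -0.05 (0.515). Limd1, of the same LIM-domain family, fell by 0.81 under TGF-β.

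Among the targets, Ccn2 encodes a secreted matricellular protein also known as connective tissue growth factor. Ccn2 read 11.92 and 12.07 on withdrawal arrays, 14.12 and 14.13 on TGF-β arrays and 12.79 and 12.73 on control arrays (log2). The TGF-β arrays were highest and the withdrawal arrays were below control. The highest value of any probe set was 14.86 to 14.93 depending on the array, so the TGF-β values lay near the top of the measured range. Ccn2 rose by 1.36 ± 0.068 (SE) under TGF-β, a 2.57-fold rise (adjusted p = 4.46e-05). On withdrawal it fell by 2.13 ± 0.068 (SE) against TGF-β (adjusted p = 7.94e-06), the 226th largest absolute change of 18193 genes. It ended 0.77 below control (adjusted p = 0.000238). The alternatives gave -1.14 to -0.64 here. Several of them, such as an intensity trend or leaving out a TGF-β array, could not alter this difference. Only 1 probe set carried the symbol Ccn2.

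Ccn1 encodes a related matricellular protein that binds integrins. Ccn1 read 11.93 and 11.95 on withdrawal arrays, 12.64 and 12.66 on TGF-β arrays and 11.48 and 11.49 on control arrays (log2). The groups were separate, with withdrawal between TGF-β and control. Ccn1 rose by 1.17 ± 0.048 (SE) under TGF-β (adjusted p = 2.25e-05) and fell by 0.71 on withdrawal against TGF-β (adjusted p = 8.78e-05). After withdrawal it stood 0.45 above control in the probe set used, 1416039_x_at (adjusted p = 0.000513).

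The probe sets of Ccn1 split on that last comparison. The next brightest, 1438133_a_at, read 11.49 and 11.52 on withdrawal arrays, 12.15 and 12.15 on TGF-β arrays and 10.87 and 10.84 on control arrays, and was also higher on withdrawal than in control, by 0.65 (adjusted p = 0.000206). By contrast, 1457823_at read 8.18 and 8.17 on withdrawal arrays, 10.35 and 10.39 on TGF-β arrays and 8.95 and 8.93 on control arrays. Its difference from control after withdrawal was -0.76 (adjusted p = 0.000106). This probe set alone of the 4 does not end in x, s or a. Against TGF-β it was at -2.19, a larger fall than in the probe set used. Another, 1442340_x_at, read 8.56 and 8.40 on withdrawal arrays, 10.55 and 10.63 on TGF-β arrays and 9.12 and 9.22 on control arrays, a difference of -0.69 after withdrawal (adjusted p = 0.000748). Which transcripts these dimmer probe sets read was not checked. All 4 passed upward under TGF-β, at 1.17 to 1.43, and all 4 passed downward on withdrawal against TGF-β, at -2.19 to -0.64. The direction of Ccn1 against control after withdrawal therefore depends on the probe set. With the mean of the 4 probe sets it was -0.09 and did not pass (adjusted p = 0.204).

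**Figure D3:**
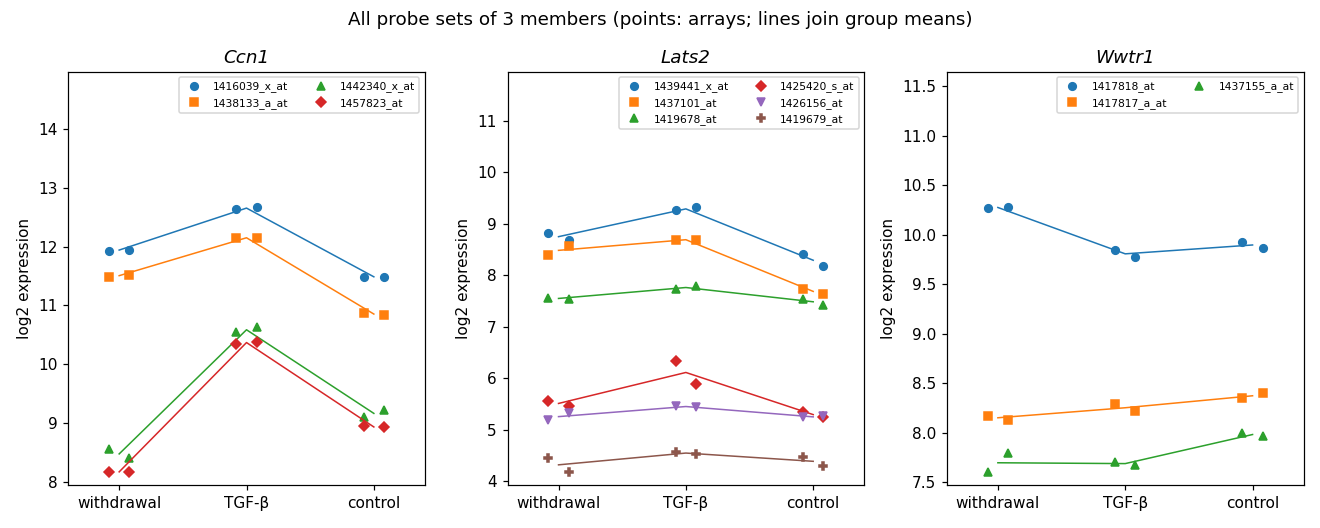
log2 expression of every probe set of Ccn1, Lats2 and Wwtr1 on withdrawal, TGF-β and control arrays, with points for arrays and lines joining the group means. For Ccn1 all 4 probe sets peak under TGF-β, but 2 lie above control after withdrawal and 2 below it. For Wwtr1 only the brightest of 3 is highest on withdrawal arrays.

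Ankrd1 encodes an ankyrin repeat protein of muscle sarcomeres and the nucleus. Ankrd1 read 12.65 and 12.65 on withdrawal arrays, 13.75 and 13.79 on TGF-β arrays and 12.76 and 12.78 on control arrays (log2). The TGF-β arrays stood apart, and withdrawal and control arrays lay close together. Ankrd1 rose by 1.00 ± 0.049 (SE) under TGF-β (adjusted p = 4.22e-05) and fell by 1.11 ± 0.049 (SE) on withdrawal against TGF-β (adjusted p = 1.97e-05). Against control the withdrawal difference was -0.12 with a 95% interval of -0.24 to 0.0025 (adjusted p = 0.103). It passed with an intensity trend, with the dimmest genes left out and with hybridization spike scaling (adjusted p = 0.000539, 0.0374 and 0.00048), the last at -0.50, and was at 0.0079 with cyclic loess. The other probe set, 1420992_at, was at 0.93, -0.94 and -0.0063 in the first, the second and the third comparison.

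Axl encodes a receptor tyrosine kinase of the TAM family. Axl read 12.10 and 12.13 on withdrawal arrays, 11.76 and 11.79 on TGF-β arrays and 11.69 and 11.70 on control arrays (log2). The withdrawal arrays were the highest, and the gap between TGF-β and control was small. Under TGF-β the difference was 0.08 with a 95% interval of -0.04 to 0.20 (adjusted p = 0.295), which passed with an intensity trend (adjusted p = 0.0375) and was at -0.21 and -0.08 with poly-A and hybridization spike scaling. Axl rose by 0.34 ± 0.049 (SE) on withdrawal against TGF-β and by 0.41 against control (adjusted p = 0.00219 and 0.000833). The call against TGF-β was lost with hybridization spike scaling (adjusted p = 0.447) and, at 0.15, with the mean of probe sets (0.0746), and the call against control with either spike scaling (0.229 with poly-A and 0.802 with hybridization spikes). The other probe set, 1438621_x_at, read 3.37 to 3.58 on all 6 arrays and passed in none of the comparisons.

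The other genes of the published YAP/TAZ target signature, 16 in all and each measured, did not share a direction. Of them 81.2%, 93.8% and 87.5% passed in the first, the second and the third comparison, against 32.4%, 43.9% and 45.3% of all genes. Under TGF-β 7 rose, 6 fell and 3 did not pass, with a median of 0.13. Those with the largest changes were Ccdc80, which encodes a secreted matrix protein, at 2.54, the stress response gene Gadd45a at 1.39, the ligand gene Tgfb2 at 1.34 and the RNA-binding protein gene Rbms3 at 0.84, all upward. On withdrawal against TGF-β 7 rose, 8 fell and 1 did not pass, with a median of -0.20. There the IGF carrier gene Igfbp3 rose by 2.20, Fjx1, which encodes a relative of the fly kinase Four-jointed, by 1.93 and the membrane repair gene Myof by 1.36, while the tissue factor gene F3 fell by 1.56. On withdrawal against control 10 were higher, 4 lower and 2 did not pass, with a median of 0.60, led by F3 at -2.31, Gadd45a at 2.20, Ccdc80 at 1.90 and Igfbp3 at 1.66. With poly-A and hybridization spike scaling the splits under TGF-β were 4 higher to 6 lower and 5 to 6, on withdrawal against TGF-β 7 to 4 and 6 to 9, and on withdrawal against control 9 to 2 and 6 to 6.

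By name, these targets ran both unlike and like Ccn2. Igfbp3 read 12.05 and 12.05 on withdrawal arrays, 9.91 and 9.81 on TGF-β arrays and 10.43 and 10.35 on control arrays (log2). It was lowest where Ccn2 was highest and highest where Ccn2 was lowest. F3 read 8.08 and 8.18 on withdrawal arrays, 9.70 and 9.66 on TGF-β arrays and 10.41 and 10.46 on control arrays, lower in each treated group than in control. Ccdc80 read 9.85 and 9.90 on withdrawal arrays, 10.51 and 10.51 on TGF-β arrays and 7.94 and 8.01 on control arrays, so that withdrawal arrays stayed above control. Nuak2, a stress-responsive kinase gene, was at 0.65, -0.80 and -0.15 in the first, the second and the third comparison. The guanine nucleotide exchange factor gene Dock5 was at 0.39, -0.58 and -0.19. All of these passed with the signs of Ccn2, Nuak2 narrowly in the third comparison (limma, adjusted p = 0.0488). Both genes were picked for those signs after their values were seen.

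Of the other 28 Hippo pathway genes fixed as a list, 27 were measured. Of these 51.9%, 77.8% and 74.1% passed in the first, the second and the third comparison, against 32.4%, 43.9% and 45.3% of all genes. Under TGF-β 9 rose, 5 fell and 13 did not pass, with a median of 0.06. The largest changes were those of Rassf6, which encodes a Ras-association scaffold tied to the pathway's kinases, at -2.93, the TEAD cofactor gene Vgll3 at 2.47, the FERM-domain gene Frmd6 at 1.92 and the giant cadherin gene Fat4 at 1.83. On withdrawal against TGF-β 11 rose, 10 fell and 6 did not pass, with a median of 0.14, and the same 4 genes led, with Rassf6 at 1.86, Vgll3 at -1.81, Frmd6 at -1.67 and Fat4 at 1.54. On withdrawal against control 11 were higher, 9 lower and 7 did not pass, with a median of 0.0057. The splits turned with spike scaling. Under TGF-β they were 4 higher to 8 lower with poly-A and 6 to 6 with hybridization spikes, on withdrawal against TGF-β 8 to 5 and 7 to 12, and on withdrawal against control 4 to 7 and 4 to 15. Without spike scaling, the largest differences on withdrawal against control were Fat4 at 3.37, Amot at 1.22, Rassf6 at -1.06 and the kinase gene Taok1 at 1.04.

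Fat4 read 9.52 and 9.56 on withdrawal arrays, 8.05 and 7.94 on TGF-β arrays and 6.05 and 6.28 on control arrays (log2), and so was higher after withdrawal than under the cytokine. Vgll3 encodes a cofactor that binds TEAD proteins. Vgll3 read 8.64 and 8.73 on withdrawal arrays, 10.52 and 10.47 on TGF-β arrays and 8.08 and 7.98 on control arrays, with TGF-β arrays highest. Rassf6 read 7.27 and 7.33 on withdrawal arrays, 5.35 and 5.53 on TGF-β arrays and 8.40 and 8.33 on control arrays, the reverse order. Of the core kinase module, Stk3 was not measured. Stk4 was at 0.19 under TGF-β and -0.48 on withdrawal against TGF-β. Its scaffold gene Sav1 was at -0.40 and 0.85, and all 4 values passed. Of the same list, Mob1a did not pass under TGF-β, at 0.16 (limma, adjusted p = 0.0559), and was at -0.36 on withdrawal against TGF-β. Mob1b ran the other way, at -0.19 and 0.53.

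**Figure D4:**
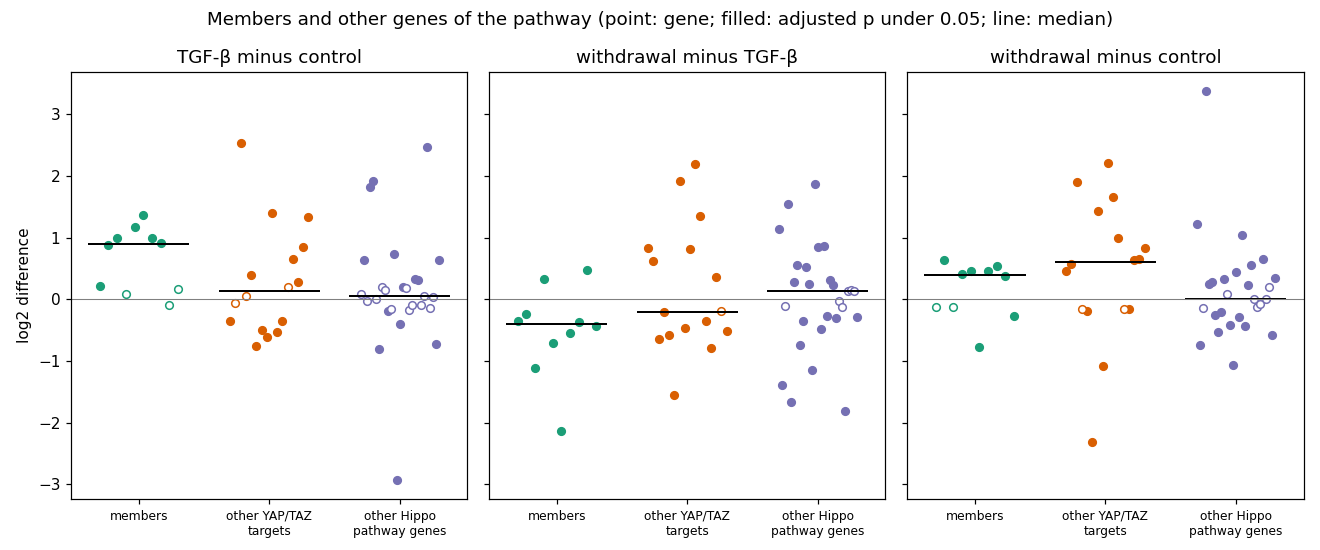
log2 differences of the 10 members, the 16 other genes of the YAP/TAZ target signature and the 27 measured other Hippo pathway genes in the 3 comparisons. Each point is a gene, filled for an adjusted p under 0.05, and lines are medians. Under TGF-β the medians are 0.89, 0.13 and 0.06 for the 3 lists.

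Genes whose profile over the 6 arrays was closest to each member were found by the Euclidean distance between profiles centred on their own mean, as a description with no test. For Ccn2 the nearest was Akap12, which encodes a kinase-anchoring scaffold, at a distance of 0.106 (Pearson's r = 0.999 over 6 arrays that fall into 3 groups). Akap12 was at 1.31, -2.06 and -0.75 in the first, the second and the third comparison. Next came Mab21l4 at 0.295. For Ccn1 they were Fndc3b at 0.05 and the apoptosis gene Pmaip1 at 0.09, and for Ankrd1 Rgs19 at 0.124 and Mbnl3 at 0.132. For Tead1 they were Spred2, an inhibitor of Ras signalling, at 0.07 and the nectin-like receptor gene Pvr at 0.074, and for Lats2 the lysyl oxidase family gene Loxl4 at 0.191 and the kinase gene Nuak1 at 0.206. For Amotl2 they were Wipi1 at 0.117 and Mbnl2 at 0.121, and for Ajuba Pbx3 at 0.023 and Fam104a at 0.04. For Yap1 they were Gimap7 at 0.085 and Mrpl36 at 0.09, for Wwtr1 Lamtor3 at 0.024 and Elk4 at 0.05, and for Axl Hadhb at 0.046 and Akr1a1 at 0.05.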

How the data were processed

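Per the labels' protocols, total RNA with added poly-A control RNAs was made into biotin-labelled antisense RNA and hybridised to 1-colour arrays, 2 per group. The authors deposited log2 values for each probe set, which the submitters' processing notes credit to RMA. That method equalises the distributions of the arrays, so a shift common to every gene is lost. The sources used here give no software or version for it. No intensities or detection calls were used, so depth is unknown. The number of arrays limits precision, and changes of dim genes may be understated, which was not tested.

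Of 45101 probe sets, 34945 had 1 symbol, 932 several and 9160 none, and 64 control probe sets were left out. Each of 18193 genes was read from its brightest probe set (mean of all 6 arrays). One limma 3.58.1 model (R 4.3.3; lmFit and eBayes, tested on simulated data) was fitted to all genes and all 6 arrays, without covariates, with p-values adjusted by Benjamini-Hochberg over all genes (threshold 0.05). Tables and figures used pandas 2.3.3 and matplotlib 3.10.9 in Python 3.11.15. Named genes were all members, up to 4 called genes per other list and comparison with the largest changes, and the 2 nearest profiles per member. Paralogs, markers, Stk4, Sav1, Mob1a, Mob1b, Nuak2 and Dock5 were added after their values were seen. Members and lists were chosen with earlier results of these data known. The alternatives were a replicate block, an intensity trend, 2 groups only, the dimmest 40% of genes left out, the mean of probe sets, probe sets ending in x, s or a left out, cyclic loess, 2 spike scalings, and each array left out in turn.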

Additional observations from a re-analysis of the deposited data

How the results depend on the processing

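The 10 members gave 30 differences, recomputed under 15 alternatives for 444 values. Of these, 393 kept their direction and their side of the threshold, 35 lost the call, 8 gained it and 8 changed sign. The replicate block, the intensity trend and the filter on dim genes can move a call but not a member's difference. Leaving out an array of the group outside a comparison gives the same fit as 2 groups only. The 393 therefore include repeated values and values whose direction could not change. For 11 of the 30 differences nothing changed in any alternative. Changes of sign under TGF-β came with poly-A spike scaling for Ajuba, Yap1 and Axl (-0.066, -0.12 and -0.21) and with hybridization spike scaling for Axl (-0.08). On withdrawal against control they came for Ccn1 with the mean of probe sets and without x, s and a probe sets (-0.086 and -0.76), for Wwtr1 with the mean of probe sets (-0.043), both of which follow from probe sets that disagree, and for Ankrd1 with cyclic loess (0.0079), where the cause was not tested.

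Poly-A spike scaling put the all-gene median at -0.30, 0.12 and -0.18 in the first, the second and the third comparison, and hybridization spike scaling moved it to -0.17, -0.25 and -0.42, so all differences are relative to the arrays' common level. Genes called in the first comparison split 2726 higher to 3175 lower, against 818 to 5334 with poly-A and 1319 to 4408 with hybridization spikes. On withdrawal against TGF-β the split was 3960 to 4023, against 3506 to 1500 and 2146 to 7772, and the total fell to 5006 with poly-A spikes. On withdrawal against control it was 3943 to 4292, against 1967 to 3730 and 1655 to 12634, and the total rose to 14289 with hybridization spikes. Members called on withdrawal against TGF-β numbered 5 with poly-A spikes, and on withdrawal against control 2 with poly-A and 4 with hybridization spikes, all 4 lower. Other Hippo genes called with poly-A spikes numbered 13 on withdrawal against TGF-β and 11 on withdrawal against control. The poly-A offsets of the control arrays were 0.0071 and -0.29, and such gaps add to the spread of every gene.

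Same-numbered replicates did not deviate together (correlations of -0.0077, 0.0006 and 0.0039), so the numbers were not taken as pairs. With the replicate block 5519, 7688 and 7908 genes and 7, 10 and 8 members were called in the 3 comparisons. Without 1 array the members called numbered 6 to 7, 9 to 10 and 7 to 8, with the lone array of a group assumed to vary like the others. Without x, s and a probe sets, Amotl2 and Ajuba had no value.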
